A study of Mus musculus with 10 samples.

Results

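A set of 10 genes of interleukin-6 (IL-6) family signalling was followed in regenerating mouse liver: the cytokine gene Il6, the receptor genes Il6ra, Il6st, Osmr and Lifr, the kinase genes Jak1 and Jak2, the transcription factor gene Stat3, and its target genes Socs3 and Pim3. They were chosen by name, and all 10 had a row among the 23056 gene symbols of the count table. Poly(A) RNA had been sequenced in 6 liver libraries labelled wild-type (WT) and 4 labelled IFRD1-KO, here called KO, in which the transcriptional co-regulator gene Ifrd1 was targeted. All libraries come from animals that had undergone partial hepatectomy, the surgical removal of the left lateral and median lobes under isoflurane, and all livers were taken 12 hours later. The study set out to explore the role of Ifrd1 in regeneration. The sources used here give no strain, sex, age or targeted cell type. Livers without surgery were not analysed here, and each comparison is between genotypes after the operation.

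IL-6 family cytokines bind a ligand-specific receptor chain and then a shared signalling chain, gp130, encoded by Il6st. JAK kinases bound to the receptor tails phosphorylate STAT3, which enters the nucleus and switches on genes such as Socs3, whose product in turn shuts the receptor and kinase complex down. In liver, IL-6 comes largely from non-parenchymal cells such as Kupffer cells, the resident macrophages. It drives the acute phase response of hepatocytes and is known as an early signal after hepatectomy.

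Library totals ran from 12307446 to 14340623 counts in WT and from 12675838 to 17098012 counts in KO. As a check of the labels, Ifrd1 was at 40.2 to 81.7 CPM (read counts normalised to a common library size) in WT and 13.0 to 22.6 CPM in KO (a log2 fold change of -1.59 with an SE of 0.23, edgeR quasi-likelihood adjusted p = 0.0258 by Benjamini-Hochberg). WT replicate 4 stood apart from its group. On the first principal component of all tested genes it lay at 40.1, next to the KO libraries (42.2 to 46.8), while the other WT libraries lay between -79.3 and -11.8. Fits without this library leave out the WT library closest to KO on that component. Their smaller p-values are therefore no independent support for a difference. The summed level of 6 hepatocyte markers was 37699 to 82261 CPM in WT and 48776 to 59120 CPM in KO. Of these 6, 1 had an adjusted p under 0.05 in edgeR, beside 1.33% of all tested genes. It was Tat, at 3065 CPM on average in WT and 1035 CPM in KO (log2 fold change -1.57, edgeR quasi-likelihood adjusted p = 0.0460). WT replicate 2 had the highest sums of Kupffer cell and macrophage markers (315 CPM, other libraries 48.8 to 168 CPM) and of neutrophil markers (174 CPM, other libraries 6.15 to 38.8 CPM). In bulk liver, fewer cells of a type and less RNA per cell cannot be told apart.

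The core of the pathway, from receptor to STAT3, was present in every library at levels that did not pass the test for a difference between genotypes. Of the 9 members with enough counts to be tested, 0 were called by the edgeR quasi-likelihood test (adjusted p under 0.05), where 1.33% of all 13688 tested genes were called. DESeq2, which called 11.9% of all tested genes, and limma-voom, which called 2.32%, also called 0 of the 9. At an unadjusted p under 0.05 there was 1 member, Osmr, against 26% of all tested genes. Among the 9, 4 members had log2 fold changes above 0 and 5 below 0, and their median of -0.02 was close to the median of all tested genes, also -0.02. The 95% interval of the fold change excluded a 2-fold difference in either direction for 7 of the 9 members, all but Socs3 and Pim3, and did so for 57.7% of all tested genes. It excluded a 1.5-fold difference in either direction for 4 members, Il6st, Lifr, Jak1 and Jak2. No member separated the WT from the KO libraries without overlap, where 6.9% of all tested genes did.

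**Figure D1:**
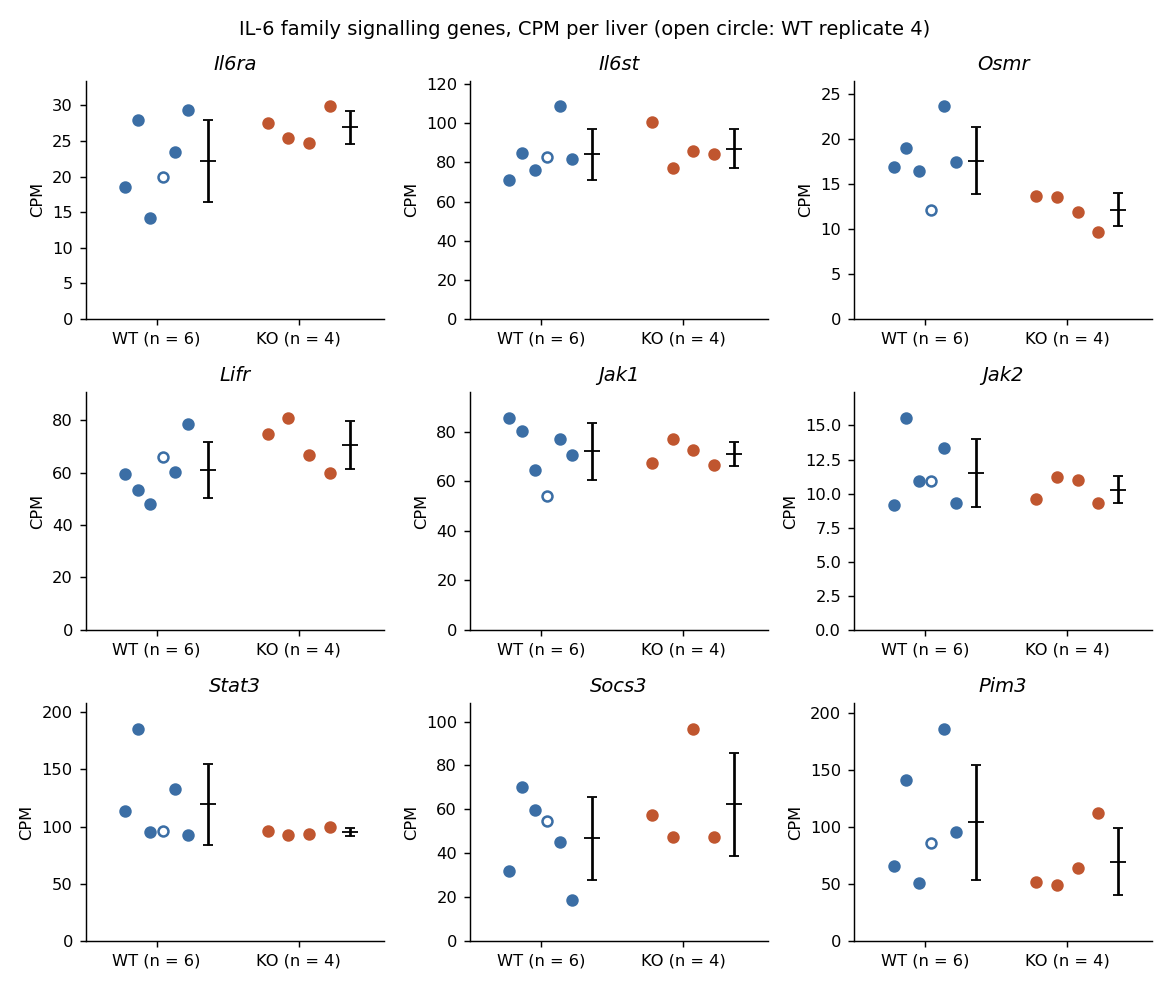
Normalised expression of the 9 tested members in each library. The vertical axis of each panel is CPM on TMM-adjusted library sizes, points are single libraries, and the black bar and whiskers are the group mean ± SD over 6 WT and 4 KO libraries. The groups overlap in every panel, in that of Osmr only through WT replicate 4 (open circle).

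The cytokine gene Il6 (ENSMUSG00000025746.11, chromosome 5, 30013114 to 30019981, plus strand, GRCm38) was barely detected. Its 8 reads in WT were spread over 5 of 6 libraries with at most 2 each, and 0 reads were counted in the 4 KO libraries. A library at 0 allows a level of up to 3 counts. Across all libraries that is 0.175 to 0.244 CPM, here on library totals without the TMM adjustment. Every library lay under this floor of counting, and no fold is given. A two-sided exact permutation test of the CPM values over the 210 labelings gave p = 0.0333, not adjusted for the number of genes. Without the filter on low counts the edgeR quasi-likelihood test gave adjusted p = 0.162. Il6 reads in liver at this time were therefore at the edge of detection in both genotypes.

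Another ligand gene of the family was abundant, and it was among the 2 pathway genes that changed. Clcf1 encodes cardiotrophin-like cytokine factor 1, which signals through the CNTF receptor chain together with LIFR and gp130. Its exons share 311 bases with the protein-coding gene AC109138.7 on the same strand, which has no row in the count table. Reads there may belong to either gene. The KO libraries held 8.61, 14.8, 13.4 and 9.08 CPM of Clcf1, and the WT libraries had a lowest value of 9.25, a median of 61.3 and a highest value of 76.8 CPM. The lowest WT value was that of WT replicate 4, which lay inside the KO range, and the other WT libraries were at 48.4 CPM or more. Clcf1 fell in KO by 2.26 on the log2 scale (95% interval -3.30 to -1.23, edgeR quasi-likelihood adjusted p = 0.0477 by Benjamini-Hochberg). The call was lost without any 1 library other than WT replicate 4 (adjusted p from 0.0669 to 0.148 in edgeR) in limma-voom (adjusted p = 0.0577) and with no filter (adjusted p = 0.0720 in edgeR), with log2 fold changes from -2.41 to -2.06 in these fits. Cntfr, the receptor chain that binds Clcf1, was at 2.91 CPM on average in WT and at 3.79 CPM in KO, without passing the test. Of 11 ligand genes in the list, 10 had a row and 2 had enough counts to be tested. Of these 2, 1 was called in edgeR, beside 1.33% of all tested genes, and the same 1 in DESeq2, beside 11.9%. The other tested ligand gene, Ctf1 for cardiotrophin 1, was at 2.05 ± 1.28 CPM in WT (SD, n = 6) and 3.43 ± 0.20 CPM in KO (SD, n = 4), without passing the test.

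The 4 receptor genes showed small differences of both signs. Il6ra (ENSMUSG00000027947.11, chromosome 3, 89864059 to 89913196, minus strand) encodes the IL-6-binding chain. It was at 14.2 CPM in the lowest, 21.7 in the median and 29.3 in the highest WT library, and at 27.6, 25.4, 24.7 and 29.9 CPM in KO. KO replicates 1, 2 and 3 lay in the upper part of the WT range and KO replicate 4 just above it, with 4 WT libraries below every KO library (log2 fold change 0.28, 95% interval -0.14 to 0.69, adjusted p = 0.381 in edgeR). Exons of Il6ra share 242 bases with the antisense transcript Gm42809, so a few of its reads may belong to either.

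Il6st, encoding gp130, was the steadiest member. Its WT libraries had a lowest value of 70.8, a median of 82.4 and a highest value of 109 CPM, and its KO libraries were at 101, 77.1, 86.0 and 84.5 CPM. The groups were intermixed (log2 fold change 0.05, 95% interval -0.27 to 0.37, adjusted p = 0.863 in edgeR), and the highest of the 10 libraries was 1.54-fold above the lowest. Il6st (ENSMUSG00000021756.12) lies on chromosome 13, 112464070 to 112510086, plus strand.

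Osmr and Lifr are neighbours on chromosome 15 and encode the chains that pair with gp130 for oncostatin M and for leukaemia inhibitory factor. Osmr (ENSMUSG00000022146.12, 6813577 to 6874969, minus strand) was at 12.1 CPM in the lowest, 17.1 in the median and 23.6 in the highest WT library, against 13.6, 13.5, 11.8 and 9.58 CPM in KO. In all, 5 of 6 WT libraries lay above every KO library, and the exception was WT replicate 4. The log2 fold change was -0.53 (95% interval -0.94 to -0.12, SE 0.19, edgeR quasi-likelihood adjusted p = 0.114), which did not pass over all genes. Without WT replicate 4 it was -0.62 with adjusted p = 0.0223 in edgeR. The groups then no longer overlapped, which follows from leaving out the only WT library inside the KO range. In that fit 21.4% of all tested genes were called, and Osmr was the only one of the 9 members among them. Lifr (ENSMUSG00000054263.12, 7090614 to 7197489, plus strand) was at 48.2 CPM in the lowest, 59.9 in the median and 78.8 in the highest WT library and at 74.7, 81.1, 66.8 and 60.0 CPM in KO. KO replicate 2 was the highest of the 10 and 3 WT libraries lay below every KO library, a difference of the other sign (log2 fold change 0.21, 95% interval -0.13 to 0.55, adjusted p = 0.417 in edgeR). Whether the differences of Osmr and Lifr differ from each other was not tested.

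Of the wider list of 8 receptor chains 7 were tested and 0 were called in edgeR (1.33% of all tested genes). There were 6 fold changes above 0, with a median log2 fold change of 0.21. DESeq2 called 0 of them (11.9% of all tested genes), and at an unadjusted p under 0.05 there was 1, Osmr (26% of all tested genes). Il11ra1, the IL-11 receptor chain, was at 22.9 ± 7.35 CPM in WT (SD, n = 6) and 28.6 ± 2.94 CPM in KO (SD, n = 4).

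The kinase genes Jak1 and Jak2 encode the enzymes that phosphorylate the receptor tails and STAT3. Jak1 (ENSMUSG00000028530.14, chromosome 4, 101152367 to 101265282, minus strand) was at 53.9 CPM in the lowest, 73.8 in the median and 85.7 in the highest WT library and at 67.3, 77.0, 72.8 and 66.6 CPM in KO. The KO values sat in the middle of the WT range (log2 fold change -0.02, 95% interval -0.35 to 0.30, adjusted p = 0.943 in edgeR), and the sign changed with the scaling. Jak2 (ENSMUSG00000024789.13, chromosome 19, 29251828 to 29313080, plus strand) was at 9.19 CPM in the lowest, 10.9 in the median and 15.6 in the highest WT library. Its KO libraries were at 9.60, 11.2, 11.0 and 9.33 CPM (log2 fold change -0.17, 95% interval -0.56 to 0.23, adjusted p = 0.596 in edgeR).

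Stat3 (ENSMUSG00000004040.16, chromosome 11, 100885098 to 100939540, minus strand) was nearly identical in the 4 KO libraries and uneven in the WT libraries. The KO libraries held 96.0, 92.4, 93.3 and 99.2 CPM, a mean of 95.2 ± 3.07 (SD, n = 4). The WT libraries ran from 93.0 CPM through a median of 105 to 185 CPM, with a mean of 119 ± 35.8 (SD, n = 6). WT replicates 1, 2 and 5 lay above every KO library, and the other 3 lay beside the KO values. The log2 fold change was -0.33 (95% interval -0.76 to 0.11, adjusted p = 0.320 in edgeR). The highest value came from WT replicate 2, the library with the highest white cell marker sums. Without it the log2 fold change was -0.16 (adjusted p = 0.562 in edgeR), and the part of those cells in the Stat3 value was not tested. On the log2 scale the SD of Stat3 was 0.39 in WT and 0.05 in KO, 8.40-fold apart. All 9 tested members had a larger log2 SD in WT than in KO, as did 80.3% of all tested genes, and no test of spread was made.

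Among 11 JAK and STAT genes, 10 were tested and 1 was called in edgeR, beside 1.33% of all tested genes. DESeq2, which called 11.9% of all tested genes, called the same 1. An unadjusted p under 0.05 in edgeR was found for 3 (26% of all tested genes), all higher in KO. The called gene, which rose, was Stat5a, which encodes a factor best known for growth hormone and prolactin signalling. It was at 5.61 CPM in the lowest, 6.77 in the median and 8.30 in the highest WT library and at 11.3, 13.3, 10.8 and 11.0 CPM in KO. The groups did not overlap (log2 fold change 0.78, 95% interval 0.41 to 1.14, edgeR quasi-likelihood adjusted p = 0.0486 by Benjamini-Hochberg). The call was lost without any 1 library other than WT replicate 4 (adjusted p from 0.0606 to 0.153 in edgeR) and with no filter (0.0586). Stat5a is the tail-to-tail neighbour of Stat3 on the opposite strand, and their exons share 72 bases whose reads could be assigned to either gene. Its relative Stat5b was at 19.5 ± 2.04 CPM in WT (SD, n = 6) and 24.5 ± 4.13 CPM in KO (SD, n = 4), and Jak3, a kinase of lymphoid cytokine receptors, was at 18.7 ± 7.92 and 30.3 ± 5.35 CPM. Neither passed (adjusted p = 0.179 and 0.127 in edgeR). Without WT replicate 4 the list had 4 calls among 10, in a fit that called 21.4% of all tested genes.

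**Figure D2:**
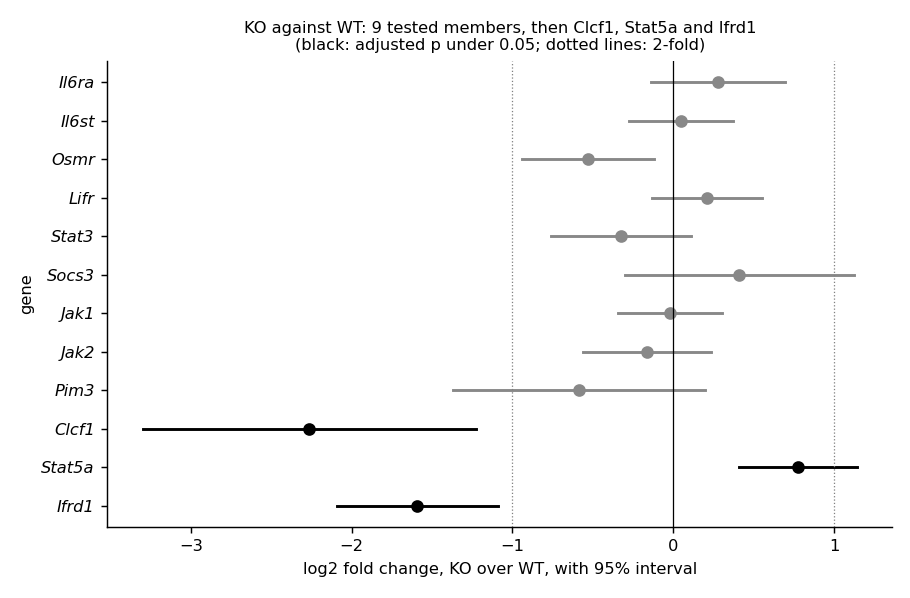
Log2 fold change of KO over WT (horizontal axis) for the 9 tested members and, below them, Clcf1, Stat5a and Ifrd1 (vertical axis). Points are estimates and lines 95% intervals from edgeR on 6 WT and 4 KO libraries. Only the intervals of Socs3 and Pim3 among the members cross a dotted line at 2-fold, and Clcf1, Stat5a and Ifrd1, in black, passed the test.

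Socs3 encodes the feedback inhibitor that binds gp130 and JAK kinases, and it had the widest span from lowest to highest library among the tested members. Socs3 (ENSMUSG00000053113.3, chromosome 11, 117966079 to 117970047, minus strand) was at 18.7 CPM in the lowest, 50.1 in the median and 70.2 in the highest WT library and at 57.2, 47.4, 96.7 and 47.5 CPM in KO. The highest of the 10 libraries was KO replicate 3 and the lowest WT replicate 6, 5.17-fold apart, and the other KO libraries lay inside the WT range. The log2 fold change was 0.41 (95% interval -0.30 to 1.13, adjusted p = 0.447 in edgeR). It fell to 0.12 without KO replicate 3 and to 0.25 without WT replicate 6. A 2-fold higher level in KO lies within the interval and a 1.5-fold lower level does not.

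STAT factors bind the palindrome TTCNNNGAA, of which TTCCNGGAA is a narrower form. Both motifs read the same on both strands, and every match to the second is also a match to the first. In windows from 250 bases before to 50 bases after the annotated start (RefSeq, GRCm38.p6), TTCNNNGAA was found in 8.30% of 32851 promoters and TTCCNGGAA in 1.15%. Counted by gene, as for the lists here, the shares were 9.55% and 1.35% of 27025 genes. Promoter windows were present for all 10 members, and 1 of them, Socs3, had a match to TTCNNNGAA, 154 bases before its RefSeq start. A count of 1 in 10 is near the share over all genes. No match says only that these letters are not in this window. Of the 21 listed acute phase genes 17 had a window, and 5 of these had a match to TTCNNNGAA: Apcs, Fga, Fgb, Hamp and Itih4. Hamp, for the iron hormone hepcidin, had a match 97 bases before its start, and Fga, for the fibrinogen alpha chain, had one to the narrower form 234 bases before its start. The windows of Socs3, Hamp and Fga are shown as examples of member and acute phase promoters that hold the motif, chosen after the matches were known, with the matched bases in capitals, 5′ to 3′ on the strand of the gene. The Socs3 window is chr11:117969317-117969616 on the minus strand. It lies inside the longer GENCODE gene model, downstream of the start of that model, so it may not be the promoter used in liver. The window of Hamp is chr7:30943980-30944279 on the minus strand and that of Fga chr3:83025903-83026202 on the plus strand.
Socs3: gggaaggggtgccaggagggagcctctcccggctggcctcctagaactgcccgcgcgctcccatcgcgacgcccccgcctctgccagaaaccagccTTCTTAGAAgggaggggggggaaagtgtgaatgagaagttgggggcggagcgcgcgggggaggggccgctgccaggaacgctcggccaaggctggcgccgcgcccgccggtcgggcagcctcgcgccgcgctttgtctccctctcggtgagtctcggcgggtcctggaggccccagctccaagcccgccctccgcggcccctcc
Hamp: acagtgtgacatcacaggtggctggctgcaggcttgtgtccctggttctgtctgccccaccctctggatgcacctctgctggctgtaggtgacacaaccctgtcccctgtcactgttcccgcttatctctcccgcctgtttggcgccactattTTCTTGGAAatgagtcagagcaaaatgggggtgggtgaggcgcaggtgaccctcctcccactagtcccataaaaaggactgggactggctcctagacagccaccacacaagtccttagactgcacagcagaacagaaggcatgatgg
Fga: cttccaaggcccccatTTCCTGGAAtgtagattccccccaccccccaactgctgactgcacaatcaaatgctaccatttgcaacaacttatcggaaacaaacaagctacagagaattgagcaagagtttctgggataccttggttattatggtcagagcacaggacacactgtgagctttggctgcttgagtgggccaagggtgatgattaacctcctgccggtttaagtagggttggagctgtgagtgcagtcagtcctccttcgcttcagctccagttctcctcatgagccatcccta

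Pim3 (ENSMUSG00000035828.11, chromosome 15, 88862186 to 88865726, plus strand) encodes a survival kinase of the PIM family. It was at 51.0 CPM in the lowest, 90.6 in the median and 186 in the highest WT library and at 52.0, 49.5, 63.8 and 113 CPM in KO. The other 3 KO libraries were near the lowest WT value, while KO replicate 4 was above the WT median (log2 fold change -0.59, 95% interval -1.37 to 0.20, adjusted p = 0.321 in edgeR). The value moved to -0.91 without KO replicate 4 and to -0.34 without WT replicate 5, the highest library. Of the 3 PIM kinase genes 0 were called in edgeR, 0 in DESeq2 and 1 had an unadjusted p under 0.05 (1.33%, 11.9% and 26% of all tested genes). That gene was Pim1, at 11.1 ± 3.47 CPM in WT (SD, n = 6) and 17.7 ± 1.44 CPM in KO (SD, n = 4), with no overlap between the groups (log2 fold change 0.67, adjusted p = 0.104 in edgeR, 0.0296 without WT replicate 4). The estimates for Pim3 and Pim1 had opposite signs. Neither passed in the edgeR fit of all libraries, and whether they differ from each other was not tested. Pim2 was at 3.53 CPM on average in WT and 3.80 CPM in KO.

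Per kilobase of exon the members covered a wide range of levels. The median over the 10 libraries was 31.3 CPM per kilobase for Pim3, 17.7 for Socs3, 10.1 for Stat3 and 9.91 for Jak1. Il6st followed with 7.55 and Lifr with 5.87 CPM per kilobase. Il6ra with 2.90, Jak2 with 2.17 and Osmr with 1.24 CPM per kilobase were lower, and Il6 was at 0.014. The ranges of neighbours in this order overlapped except between Lifr and Il6ra and between Osmr and Il6. Stat3 and Jak1 were the closest pair, with Stat3 above Jak1 in 8 of 10 libraries. The shared chain gene Il6st was thus at a higher level per length than each of the 3 ligand-binding chain genes in the medians, and above Lifr, its nearest neighbour, in 9 of 10 libraries. Exon lengths are the union over all annotated transcripts, which lowers the value of genes with long rarely used exons.

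**Figure D3:**
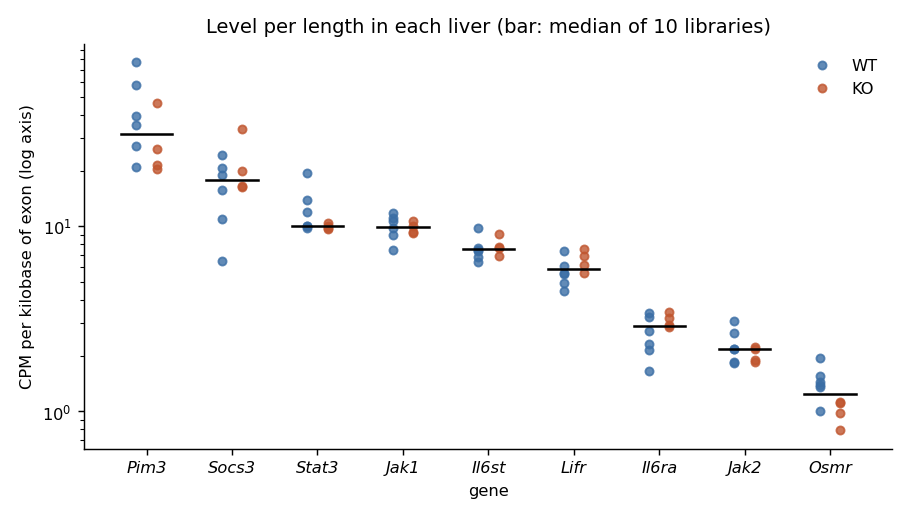
Level of each tested member in CPM per kilobase of exon (vertical log axis), in order of the median over 10 libraries (horizontal bars). Points are single WT and KO libraries. Pim3 and Socs3 are highest at medians of 31.3 and 17.7, and Osmr is lowest at 1.24.

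The inhibitors of the pathway gave no call. Of 16 genes for SOCS and CIS proteins, PIAS proteins and tyrosine phosphatases, all 16 were tested and 0 were called in edgeR, 2 in DESeq2 (11.9% of all tested genes), and 7 had an unadjusted p under 0.05 (26% of all tested genes), 5 of them lower in KO. The median log2 fold change was -0.12. Socs5 was at 8.37 ± 1.36 CPM in WT (SD, n = 6) and 5.43 ± 0.65 CPM in KO (SD, n = 4), and Socs7 at 12.0 ± 2.93 and 7.44 ± 0.49 CPM (adjusted p = 0.0825 and 0.0851 in edgeR). Ptpn11, the phosphatase and adaptor SHP2 that links gp130 to the MAPK cascade, was at 58.7 ± 10.7 CPM in WT (SD, n = 6) and 42.1 ± 5.37 CPM in KO (SD, n = 4; adjusted p = 0.103 in edgeR). The estimate for Socs3 thus had the opposite sign to those for Socs5 and Socs7. None of them passed in the edgeR fit of all libraries, and whether they differ from each other was not tested. Without WT replicate 4 there were 5 calls among the 16 inhibitors, beside 21.4% of all tested genes.

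Genes known to respond to STAT3 had fold changes of both signs, and whether they moved together was not tested. Of 21 acute phase protein genes, all 21 were tested and 0 were called in edgeR and 2 in DESeq2 (11.9% of all tested genes), and 3 had an unadjusted p under 0.05 (26% of all tested genes). Of the fold changes, 15 were above 0, with a median log2 fold change of 0.19. Hamp was at 738 CPM in the lowest, 1731 in the median and 3309 in the highest WT library and at 3857, 3894, 4152 and 3715 CPM in KO. All KO libraries lay above all WT libraries, with WT replicate 4 the highest WT library (log2 fold change 0.97, adjusted p = 0.0977 in edgeR, 0.0145 without WT replicate 4). Orm3, for an orosomucoid of a family of near-identical copies, went the other way, at 9.12 CPM in the lowest, 90.3 in the median and 139 in the highest WT library and at 20.1, 10.3, 23.1 and 19.5 CPM in KO. WT replicate 4 was that lowest library and the other WT libraries were at 75.9 CPM or more (log2 fold change -2.21, adjusted p = 0.0650 in edgeR, 1.72e-04 without WT replicate 4). Hp, for haptoglobin, was at 13050 ± 3507 CPM in WT (SD, n = 6) and 18260 ± 1521 CPM in KO (SD, n = 4; adjusted p = 0.177 in edgeR). Without WT replicate 4, 5 of the 21 were called, near the 21.4% of all tested genes called in that fit.

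**Figure D4:**
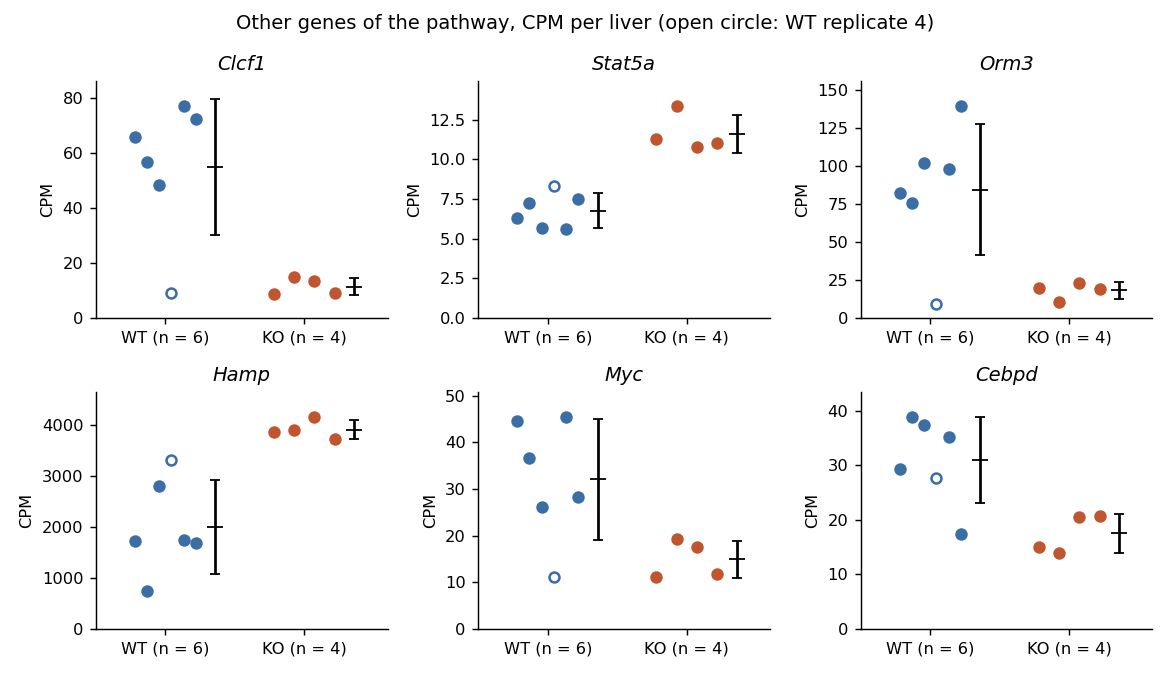
CPM per library for Clcf1, Stat5a and 4 genes that respond to STAT3. Points are single libraries and the black bar and whiskers are the group mean ± SD over 6 WT and 4 KO libraries. WT replicate 4 (open circle) lies within or beside the KO values of Clcf1, Orm3, Hamp and Myc, and below all KO values of Stat5a.

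Of 18 regulator genes known to respond to STAT3, 17 were tested and 0 were called in edgeR and 6 in DESeq2 (11.9% of all tested genes), while 8 had an unadjusted p under 0.05 (26% of all tested genes), 6 of them lower in KO. The median log2 fold change was -0.49, against -0.02 over all tested genes. Of the 18, Socs3, Stat3 and Pim3, were described above, as were Osmr, Il6st and Pim1. Cebpd, for an acute phase transcription factor, was at 31.0 ± 7.94 CPM in WT (SD, n = 6) and 17.5 ± 3.58 CPM in KO (SD, n = 4; log2 fold change -0.82, adjusted p = 0.0679 in edgeR). Myc, a growth regulator, was at 32.0 ± 13.0 and 14.9 ± 4.02 CPM (log2 fold change -1.10, adjusted p = 0.0855 in edgeR). Vegfa, an endothelial growth factor gene, was at 133 ± 58.0 CPM in WT (SD, n = 6) and 267 ± 57.7 CPM in KO (SD, n = 4; log2 fold change 1.01, adjusted p = 0.0719 in edgeR). Without WT replicate 4 there were 9 calls among the 17, beside 21.4% of all tested genes, and the differences of Cebpd, Myc and Vegfa kept their signs.

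Of 7 genes for gp130-shedding proteases and MAPK adaptors, 0 were called in edgeR and 0 in DESeq2 (11.9% of all tested genes). An unadjusted p under 0.05 was found for 2, Ptpn11 and Gab1, near the 26% of all tested genes. Gab1, a docking protein, was at 5.46 ± 1.13 CPM in WT (SD, n = 6) and 7.91 ± 1.00 CPM in KO (SD, n = 4; adjusted p = 0.124 in edgeR). Shc1, another adaptor, was at 56.8 ± 12.7 and 44.3 ± 8.85 CPM (adjusted p = 0.262 in edgeR). Over all pathway lists, 76 of 88 distinct genes were tested, 1 rose (Stat5a) and 1 fell (Clcf1), beside 1.33% called among all tested genes.

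**Figure D5:**
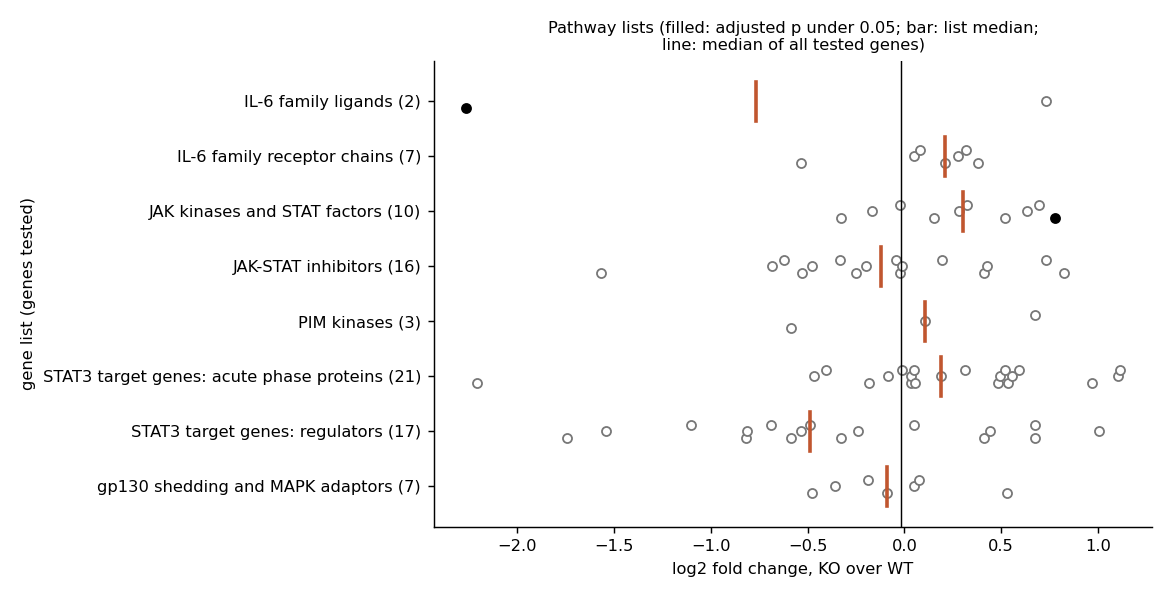
Log2 fold change of KO over WT (horizontal axis) of every tested gene in 8 lists of the pathway (vertical axis, with the number tested). Each circle is a gene, filled where the adjusted p was under 0.05, and orange bars are list medians. The filled circles are Clcf1 at -2.26 and Stat5a at 0.78, and the regulator list has the median of -0.49.

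The markers of cells that could supply or answer IL-6 also differed between libraries. Of 12 Kupffer cell and macrophage markers, 11 were tested and 10 had log2 fold changes below 0 (51.6% of all tested genes). In edgeR 0 were called (1.33% of all tested genes) and 5 had an unadjusted p under 0.05 (26% of all tested genes). Their summed level was 57.4 to 315 CPM in WT and 48.8 to 86.3 CPM in KO, and no marker of the list was at 0 in all libraries. For 6 neutrophil markers the sum was 10.1 to 174 CPM in WT and 6.15 to 17.3 CPM in KO. Of these markers 5 were tested, 5 were below 0, 0 were called in edgeR and 3 had an unadjusted p under 0.05. For 6 endothelial markers the sum was 81.9 to 169 CPM in WT and 87.7 to 136 CPM in KO. All 6 were tested, with 3 above 0 and 3 below 0, and 0 were called in edgeR. An unadjusted p under 0.05 was found for 3 (26% of all tested genes), 1 higher and 2 lower in KO. The groups did not overlap for 1 of the 6 (6.9% of all tested genes). The part of these cells in the values of Osmr, Clcf1 and the other members was not tested.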

How the data were processed

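The authors deposited a table of unnormalised read counts, with gene symbols in rows and 1 column per library. Per the submitters' processing notes, STAR, HTSeq, DESeq2 and the build mm10 were used; versions, roles, annotation and strand setting are, in the sources used here, not given. The labels do not name the animal behind each library, so p-values reflect only how these libraries spread, which may be technical. All 10 columns were used (0 left out).

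The test was edgeR 4.0.16 (R 4.3.3): TMM scaling, filterByExpr by group, robust quasi-likelihood F test of KO against WT on 13688 genes holding 99.8% of counts, no covariate, Benjamini-Hochberg adjustment over all of them, called under 0.05. SE is the log2 fold change over the square root of F, and 95% intervals use the t quantile of the fit. CPM are counts on TMM-adjusted library sizes. The edgeR code was tested on counts simulated with the spread of these data. It recovered 8% of 1.5-fold, 30% of 2-fold and 98% of 4-fold and of 8-fold changes. A gene without a call may therefore still differ by 2-fold. Changes between 2-fold and 4-fold were not simulated, so no upper limit follows for such a gene. Pairs of libraries within a group differed far beyond sampling noise (chi-square per degree of freedom 20.8 to 169). Gene models are those of GENCODE M21 (GRCm38, the assembly of mm10), which held 22277 of 23056 symbols. Exons of other named genes also share bases with a second gene. Examples are Jak3 (404 bases with Insl3), Pim1 (488 with Gm26885) and Cebpd (562 with Spidr). Reads there may belong to either gene. Promoter windows are from RefSeq.

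The members and gene lists were chosen with earlier results of these data known. Named were all 10 members, Ifrd1 and, from each pathway list, the called genes plus the smallest p up to 3. Cntfr, Lif, the marker gene Tat and the promoters were chosen after their values were seen. The alternatives tried were DESeq2 1.42.0, limma-voom (limma 3.58.1), RLE or upper-quartile scaling, no filter on counts, at least 1 CPM in 4 libraries, no robust prior, the replicate number as a block, and each library left out; leaving out WT replicates 2 and 4 together was added after seeing the data.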

Additional observations from a re-analysis of the deposited data

Results flagged for a closer look

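Il6st was at 109 CPM in WT replicate 5, apart from the other 5 WT libraries (70.8 to 84.6 CPM). The gap to the nearest library was 0.635 of the group's range, above the 95% critical value for 6 samples. It was the only such value in 22 groups examined (9 members, Clcf1 and Stat5a in WT and in KO), where about 1 in 20 groups is expected to be marked by chance.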

How the results depend on the processing

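The call count over all genes was 182, and it was 1618 in DESeq2, 318 in limma-voom, 1 with the replicate block in all libraries, 0 with the replicate block in the libraries of shared numbers (2860 at an unadjusted p under 0.05 in edgeR), 2594 without WT replicates 2 and 4 together, and 0 to 2893 with 1 library left out, the highest without WT replicate 4. The count of called members was 0, with 0 to 1 when 1 library was left out and 1 without WT replicates 2 and 4 together, in both cases Osmr. Of the pathway genes 2 were called, against 0 with no filter, 12 in DESeq2, 1 in limma-voom, 0 with either replicate block, 19 without WT replicates 2 and 4 together, and 0 to 24 with 1 library left out. The count of members whose groups did not overlap went from 0 to 1 without WT replicates 2 and 4 together (Osmr) and in the libraries of shared numbers (Il6, under the counting floor), and lay between 0 and 1 with 1 library left out. Ifrd1 kept its direction but lost its call with the replicate block (log2 fold change -1.61 in both fits, adjusted p = 0.124 and 0.132 in edgeR), and was between -1.68 and -1.44 with 1 library left out. Same-numbered WT and KO libraries correlated at 0.179, 0.069, -0.029 and -0.020 in their deviations from the group means, so the numbers were not taken to pair the libraries. Jak1 changed sign with upper-quartile scaling (0.020), with the replicate block (0.016 and 0.012), and without WT replicate 1 (0.031), WT replicate 2 (0.0089), KO replicate 1 (0.0037) or KO replicate 4 (0.013), with a range from -0.092 to 0.031 over single libraries left out, Il6st without KO replicate 1 (-0.027, the lowest of a range up to 0.13), and Pim2 with the replicate block (-0.066 and -0.071). The cause of these changes was not tested. The other 7 tested members kept their direction in all 20 alternatives. Depth limits Il6 most, with at most 2 reads per library.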

Other observations

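Lif, the gene of leukaemia inhibitory factor, did not pass the filter on low counts. Its reads were uneven in WT, at 29, 15, 3, 0, 8 and 0 in replicates 1 to 6, and were 4, 3, 2 and 1 in the KO libraries. The oncostatin M gene Osm was at 0.378 CPM or less in every library, while its receptor gene Osmr was at 9.58 CPM or more.

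The 5 tested genes whose centred log2 CPM over the 10 libraries differed least from that of Socs3, among 12704 genes with a mean of at least 1 CPM, were Tmem47, Gabbr2, Thoc2, Ccdc39 and Adam19. Their root mean square differences were 0.28 to 0.33 on the log2 scale, against a log2 SD of Socs3 itself of 0.64. All points come from the same 10 libraries.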
